A study of Mus musculus with 6 samples.

Results

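Heat shock proteins and co-chaperones were examined in mouse gastrocnemius muscle, the large fast calf muscle, in 6 RNA-seq libraries from 2 genotypes. The 10 genes were taken by symbol from the 24054 genes of the gene count table: Hspa1a, Hspa1b, Hspa8, Hsp90aa1, Hsph1, Dnajb1, Hspb1, Hspb7, Cryab and Bag3. All 10 were among the 12660 genes that passed the filter on low counts. MI4KO mice (n = 3) carry Irf4 flox/flox alleles and Myl1-cre, a skeletal-muscle-selective Cre, and so lose IRF4, interferon regulatory factor 4, in muscle fibers. MI4OE mice (n = 3) carry a Rosa26-LSL-IRF4 allele with the same Myl1-cre and overexpress IRF4 in the fibers. All mice were male C57BL/6, both groups carry Cre, and their age was not given in the sources used here. The labels name a high fat diet while the study describes mice on chow, so the diet is uncertain. Gastrocnemius from wild-type or flox mice was not analysed here, and every difference below is MI4OE relative to MI4KO, and cells of the tissue in which Myl1-cre is not active keep their own Irf4 alleles.

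Heat shock proteins are chaperones that hold or refold proteins that have lost their shape. HSP70 proteins bind exposed stretches of a client and release them through cycles of ATP hydrolysis, which J-domain proteins start and which nucleotide exchange factors such as HSP110 and BAG proteins complete. HSP90 acts later, on clients such as kinases and steroid receptors, and the small heat shock proteins hold unfolded clients without using ATP. Heat shock factor 1 (HSF1) switches many of these genes on by binding heat shock elements, repeats of GAA in alternating orientation. In muscle, small heat shock proteins and BAG3 protect contractile filaments and the Z-disc, and several of them are more abundant in slow oxidative fibers than in fast glycolytic ones.

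The promoters are shown first, because they show the shortest form of the heat shock element where it occurs and how alike Hspa1a and Hspa1b are. RefSeq promoter windows of GRCm38.p6, running from 250 bases before to 50 bases after an annotated start, were found for 7 of the 10 genes. Hspa8, Hsp90aa1 and Cryab had none in the table. The 2-unit element was searched as GAANNTTC or TTCNNGAA, which are each their own reverse complement, so both strands were covered. It was present in 5 of the 7 genes, Hspa1a, Hspa1b, Hspb1, Hsph1 and Bag3, and in 17.0% of all genes with a window. In Bag3 it lay only after the start. The capitals mark the 2-unit element and, in Hspa1a and Hspa1b, also the inverted CCAAT box (ATTGG). Hspa1a lies on the minus strand at chr17:34972207-34972272, from 116 to 51 bases before the start. Hspa1b lies on the minus strand at chr17:34959289-34959354, at the same distance. Hspb1 is shown from the plus strand at chr5:135887790-135887841, from 129 to 78 bases before the start. Hsph1 is shown from the minus strand at chr5:149636350-149636381, from 45 to 14 bases before one annotated start and from 66 to 35 before another.
Hspa1a: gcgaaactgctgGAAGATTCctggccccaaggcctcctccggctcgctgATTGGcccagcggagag
Hspa1b: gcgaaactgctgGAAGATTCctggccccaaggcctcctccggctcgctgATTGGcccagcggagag
Hspb1: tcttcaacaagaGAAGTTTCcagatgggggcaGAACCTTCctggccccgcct
Hsph1: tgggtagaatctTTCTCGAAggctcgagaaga

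The Hspa1a and Hspa1b stretches were letter for letter the same, and their whole windows were identical at 296 of 300 bases. The 3-unit element, GAANNTTCNNGAA or TTCNNGAANNTTC, which contains the 2-unit element, was found in 1 of the 7 genes, Hsph1, after the start, and in 0.662% of all genes. A CCAAT box (CCAAT or ATTGG) was found in 4 of the 7 genes and in 41.1% of all genes. The interferon-stimulated response element core, GAAANNGAAA or TTTCNNTTTC, was found in 0 of the 7 and in 3.99% of all genes. Only exact matches were counted, so elements with a changed letter in a unit were not searched. These matches describe letters in a window and not bound sites.

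The genotype labels held at the manipulated gene. Irf4 counts were 6, 0 and 2 in MI4KO, against 2864, 10557 and 5911 in MI4OE. Total expected counts ran from 18828605 to 29239585 per library, and levels are given as CPM, counts brought to a common library total, after scaling by the trimmed mean of M-values (TMM). On that scale 3 counts are worth 0.101 to 0.148 CPM. The tissue label was checked on skeletal muscle markers, of which Acta1 ran from 39559 to 55108 CPM and Ckm from 22473 to 44001 CPM. MI4OE replicate 1 stood apart from the other 5 libraries. Its 10 most abundant genes took 25.5% of the counts, against 32.8% to 36.8% elsewhere. Results on the 10 genes are given with and without it.

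No genotype difference in the 10 genes exceeded the spread between libraries, and the largest fitted differences, in Hspb7 and Cryab, rested on MI4OE replicate 1. By edgeR's quasi-likelihood test with Benjamini-Hochberg adjustment, 0 of the 10 passed an adjusted p of 0.05, against 0.0237% of all genes tested. The study called genes at 1.5-fold with an unadjusted p under 0.05, and by that criterion 0 of the 10 passed, against 6.64% of all genes (4.36% higher in MI4OE and 2.28% lower). At an unadjusted p under 0.05 alone the count was also 0, against 7.58%. The CPM ranges of the 2 genotypes overlapped for all 10 genes, while 12.9% of all genes had no overlap (7.38% higher in MI4OE and 5.48% lower). Fitted log2 fold changes were above 0 for 9 of the genes and below 0 for Hsph1, with a median of 0.29 beside a median of 0.00 over all genes, of which 50% were above 0. Without MI4OE replicate 1, the median of the 10 was -0.06, with 3 above 0 and 7 below. The plot of CPM by library shows the 10 genes in all 6 libraries.

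**Figure D1:**
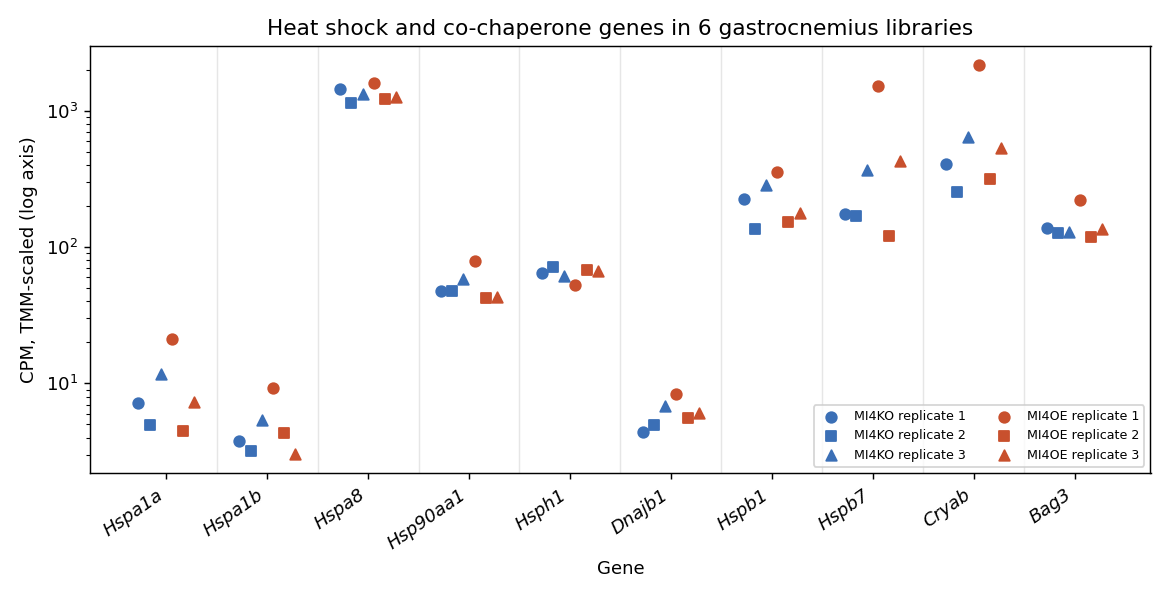
CPM on a log axis for each of the 10 genes, with 1 point per library, 3 MI4KO and 3 MI4OE. The MI4OE replicate 1 point lies highest for every gene but Hsph1, where it lies lowest, and the remaining MI4OE points fall among or near the MI4KO points.

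The stress-inducible HSP70 genes, Hspa1a and Hspa1b, were low in this muscle. They sit side by side and code for almost the same protein. Of all 50-base stretches of the Hspa1a transcript in GENCODE M21, 58.8% occurred in Hspa1b, and 62.3% of those of Hspa1b occurred in Hspa1a. The reads were 50 bases long, and RSEM divides a read that matches both genes between them, so the sum is firmer than either value. The sum measured 10.97, 8.20 and 17.1 CPM in MI4KO replicates 1, 2 and 3, and 30.3, 8.81 and 10.3 CPM in MI4OE replicates 1, 2 and 3. MI4OE replicate 1 was the highest of the 6 libraries and the other MI4OE libraries lay inside the MI4KO range. MI4KO averaged 12.1 ± 4.55 CPM (SD, n = 3), against 16.5 ± 11.99 CPM (SD, n = 3) for MI4OE. The sum gave a log2 fold change of 0.44, with a standard error (SE) of 0.50, and its adjusted p was 0.879 in edgeR's quasi-likelihood test. The two-sided exact permutation p of the sum was 0.7, where 3 against 3 libraries can go no lower than 0.1. Without MI4OE replicate 1 the log2 fold change was -0.34 (SE 0.31).

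Taken singly, both genes gave the same picture. Hspa1a measured 7.21, 4.99 and 11.7 CPM in the MI4KO libraries, against 21.0, 4.51 and 7.29 CPM in those of MI4OE. Its log2 fold change was 0.45 (SE 0.57), and -0.44 without MI4OE replicate 1. Hspa1b measured 3.77, 3.21 and 5.41 CPM in the MI4KO libraries, against 9.30, 4.30 and 3.05 CPM in those of MI4OE. For both genes the highest library was MI4OE replicate 1, and the lowest was also an MI4OE library. The log2 fold change of Hspa1b was 0.42 (SE 0.43), and -0.17 without that library. Hspa1a took 65.6%, 60.7% and 68.3% of the pair's counts in MI4KO and 69.4%, 51.3% and 70.6% in MI4OE. The share was lowest in MI4OE replicate 2, and how far RSEM's division of shared reads sets it was not tested.

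Hspa8 (HSC70), the constitutive HSP70 of most cells, was the steadiest of the abundant genes. It measured 1451, 1147 and 1327 CPM in the MI4KO libraries, against 1600, 1222 and 1273 CPM in those of MI4OE. The highest library was 1.39 times the lowest. With a log2 fold change of 0.06 (SE 0.21), its adjusted p in edgeR's quasi-likelihood test was 0.968. Without MI4OE replicate 1 the value was -0.07. Much of its sequence also occurs in other GENCODE genes that the count table does not list, with 71.8% of its 50-base stretches shared, and how reads from those were placed was not tested. The same held for Hsp90aa1 at 58.5% and Hspb1 at 58.9%.

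The partners of HSP70 varied less among libraries than the stress-inducible pair. Dnajb1, a J-domain protein (HSP40) that starts ATP hydrolysis by HSP70, measured 4.38, 4.99 and 6.85 CPM in the MI4KO libraries, against 8.36, 5.59 and 6.09 CPM in those of MI4OE. Dnajb1 was highest in MI4OE replicate 1, and the other MI4OE libraries lay between MI4KO replicates 2 and 3. Its log2 fold change was 0.30 (SE 0.25), and 0.11 without MI4OE replicate 1. Hsph1, the HSP110-type exchange factor whose promoter element is printed above, measured 64.8, 71.0 and 61.6 CPM in the MI4KO libraries, against 52.5, 68.4 and 66.2 CPM in those of MI4OE. It was the single gene of the 10 that was lowest in MI4OE replicate 1, against 30.4% of all genes. Hsph1 had a log2 fold change of -0.08 (SE 0.16), and 0.03 without that library. Bag3, an exchange factor that couples HSP70 and small heat shock proteins to autophagy at the Z-disc, was at 138, 127 and 130 CPM in MI4KO. In MI4OE it was at 222, 119 and 137 CPM, with MI4OE replicate 1 well above the others and MI4OE replicate 2 the lowest of all 6. Its log2 fold change was 0.28 (SE 0.25), and -0.04 without MI4OE replicate 1.

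Hsp90aa1, the inducible cytosolic HSP90, measured 47.6, 47.3 and 58.5 CPM in the MI4KO libraries, against 79.4, 42.5 and 42.9 CPM in those of MI4OE. MI4OE replicates 2 and 3 were the lowest of the 6 libraries and MI4OE replicate 1 the highest. Its log2 fold change was 0.10 (SE 0.27), at an adjusted p of 0.957 in edgeR's quasi-likelihood test. Without MI4OE replicate 1 it was -0.26 (SE 0.16).

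Hspb7 and Cryab spread the most among libraries of the 10 genes. Hspb7, a small heat shock protein of heart and skeletal muscle, measured 174, 170 and 368 CPM in the MI4KO libraries, against 1523, 121 and 426 CPM in those of MI4OE. MI4OE held both the highest and the lowest library, 12.6-fold apart. The means were 237 ± 113 CPM (SD, n = 3) and 690 ± 738 CPM (SD, n = 3), and in MI4OE the SD exceeded the mean. A log2 fold change of 1.54 (SE 0.81) resulted, at an unadjusted p of 0.0958 and an adjusted p of 0.726 in edgeR's quasi-likelihood test. Without MI4OE replicate 1 it was 0.20 (SE 0.55). Without MI4OE replicate 2, the lowest library, it was 2.03 with an unadjusted p of 0.00761 and an adjusted p of 0.306, so that Hspb7 then passed the study's criterion.

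Cryab, alpha-B-crystallin, a small heat shock protein that binds desmin and titin, was likewise far highest in MI4OE replicate 1. It measured 404, 255 and 643 CPM in the MI4KO libraries, against 2155, 315 and 531 CPM in those of MI4OE. The next highest library was MI4KO replicate 3, and the remaining MI4OE libraries lay inside the MI4KO range. The means were 434 ± 196 CPM (SD, n = 3) and 1000.2 ± 1006 CPM (SD, n = 3). Cryab thus had a log2 fold change of 1.21 (SE 0.70), at an unadjusted p of 0.126 and an adjusted p of 0.762 in edgeR's quasi-likelihood test. It was -0.04 without MI4OE replicate 1 and 1.63 without MI4OE replicate 2, where the unadjusted p was 0.0270 and the adjusted p 0.406. Cryab joined Hspb7 past the study's criterion when MI4OE replicate 2 was left out, a fit in which 10.2% of all genes passed it. Hspb1 (HSP27), the third small heat shock protein, measured 224, 136 and 287 CPM in the MI4KO libraries, against 357, 153 and 178 CPM in those of MI4OE. Its highest library was again MI4OE replicate 1, and its other MI4OE values lay inside the MI4KO range. Hspb1 had a log2 fold change of 0.09 (SE 0.39), and -0.38 without MI4OE replicate 1.

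**Figure D2:**
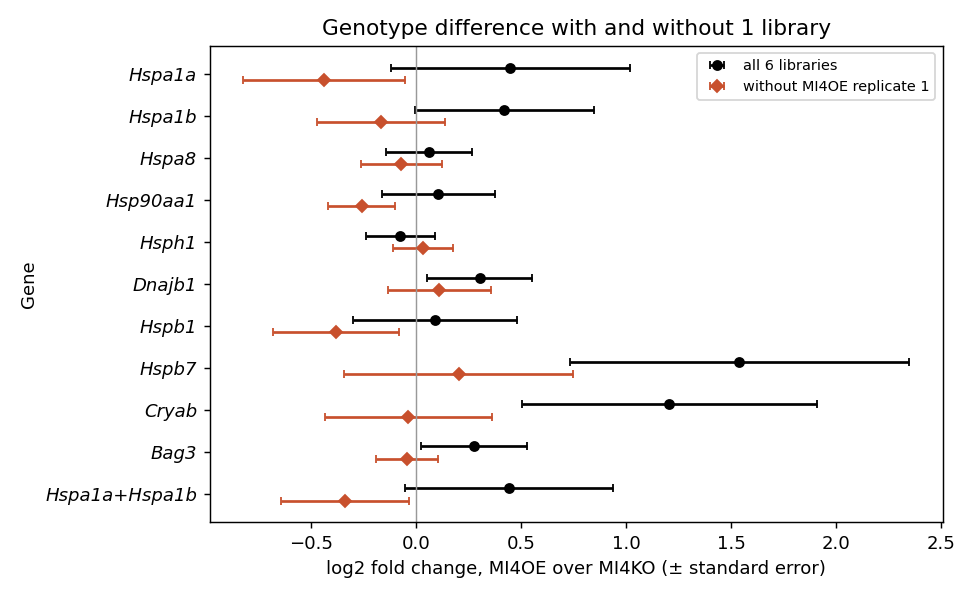
Log2 fold change of MI4OE relative to MI4KO with its standard error for the 10 genes and for the sum of Hspa1a and Hspa1b, fitted on all 6 libraries and without MI4OE replicate 1. Most values sit above 0 with all libraries and move to or below 0 without that library, with Hspb7 going from 1.54 to 0.20 and Cryab from 1.21 to -0.04.

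Levels of different genes were compared as TPM, transcript abundance on a scale that corrects for transcript length, over all 6 libraries. Cryab was at 1437 ± 1373 TPM (SD, n = 6) and Hspa8 at 1058 ± 72.6 TPM (SD, n = 6), and Cryab exceeded Hspa8 in 3 of 6 libraries. Hspb1 followed at 440 ± 144 TPM and Hspb7 at 268 ± 291 TPM, with Hspb1 the higher in 5 of 6 libraries. Bag3 was at 92.0 ± 20.6 TPM, below Hspb7 in 5 of 6 libraries. Hsp90aa1 at 30.5 ± 7.04 TPM and Hsph1 at 30.4 ± 5.91 TPM could not be ordered, with Hsp90aa1 the higher in 2 of 6 libraries. At the bottom stood Hspa1a at 5.43 ± 3.28 TPM, Dnajb1 at 4.46 ± 1.02 TPM and Hspa1b at 2.80 ± 1.21 TPM, and Hspa1a exceeded Dnajb1 in 3 of 6 libraries. Ranges did not overlap between Hspa8 and Hspb1, between Bag3 and Hsp90aa1, or between Hsph1 and Hspa1a. Small heat shock proteins and the constitutive HSP70 stood at the top of the order, and the stress-inducible HSP70 pair and its J-domain partner at the bottom.

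The excess of MI4OE replicate 1 was then described gene by gene, by counts chosen after its values had been seen. It was the highest library for 9 of the 10 genes, against 31.5% of all genes and 31.3% of those with a mean of at least 1 CPM. It reached at least 1.5 times the median of the other 5 libraries for 7 of the 10, against 20.6% of all genes, and at least 2 times for 5, against 9.32%. It reached at least 5 times for Hspb7 and Cryab, against 0.979% of all genes. The ratios ran from 8.76 for Hspb7, 5.34 for Cryab and 2.93 for the Hspa1a and Hspa1b sum through 2.01 for Hspb1 and 1.71 for Bag3 to 1.26 for Hspa8 and 0.79 for Hsph1. Among the other 5 libraries, MI4KO replicate 3 was the highest for 6 of the 10 genes, against 17.8% of all genes. A single library carries no replicate check, so these counts describe that library and not the genotype.

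Other markers moved in the same library. The summed CPM of 11 slow-fiber genes was 7397 in MI4OE replicate 1, against 41.5 to 144 in MI4KO and 55.4 and 714 in MI4OE replicates 2 and 3. Myh7, the myosin heavy chain of slow fibers, reached 1603 CPM there, against 0.204, 20.5 and 1.04 CPM in MI4KO and 0.279 and 162 CPM in the other MI4OE libraries. Myl2 and Myl3, its light chains, were at 1329 and 1252 CPM there. The summed level of 13 fast-fiber genes was 185573 CPM, against 260516 to 344655 CPM elsewhere, with Myh4, the fastest myosin, at 39865 CPM against 79759 to 110582 CPM. The other fast myosins of that list, typical of more oxidative fast fibers, went the other way, with Myh1 at 10167 CPM against 566 to 5964 CPM and Myh2 at 7421 CPM against 3.44 to 1808 CPM. Endothelial genes summed to 445 CPM against 140 to 282 CPM, and erythrocyte genes to 463 CPM against 112 to 201 CPM. Fibroblast genes summed to 562 CPM against 236 to 542 CPM, and 7 of 10 passed the study's criterion as higher in MI4OE, against 4.36% of all genes, with 4 passing without MI4OE replicate 1. Of 10 slow-fiber genes tested, 8 passed as higher, and 0 without MI4OE replicate 1 or without MI4KO replicate 1. Macrophage genes, at 59.2 CPM, lay inside the range of the others, 26.4 to 71.9 CPM, and so did adipocyte genes, at 267 CPM against 114 to 1006 CPM, although Fabp4 alone gave 259.8 CPM of that sum. Of 8 adipocyte genes, 7 passed the study's criterion as lower in MI4OE, against 2.28% of all genes, and 7 or 8 passed when any single library was left out. Adipoq, which defines adipocytes, was at 0.886 CPM there and at 81.4 CPM in MI4KO replicate 3. In bulk tissue, more cells or fibers of a type and more RNA per cell cannot be told apart, and the part of oxidative fibers, blood, vessels, connective tissue or fat in the chaperone values was not tested.

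**Figure D3:**
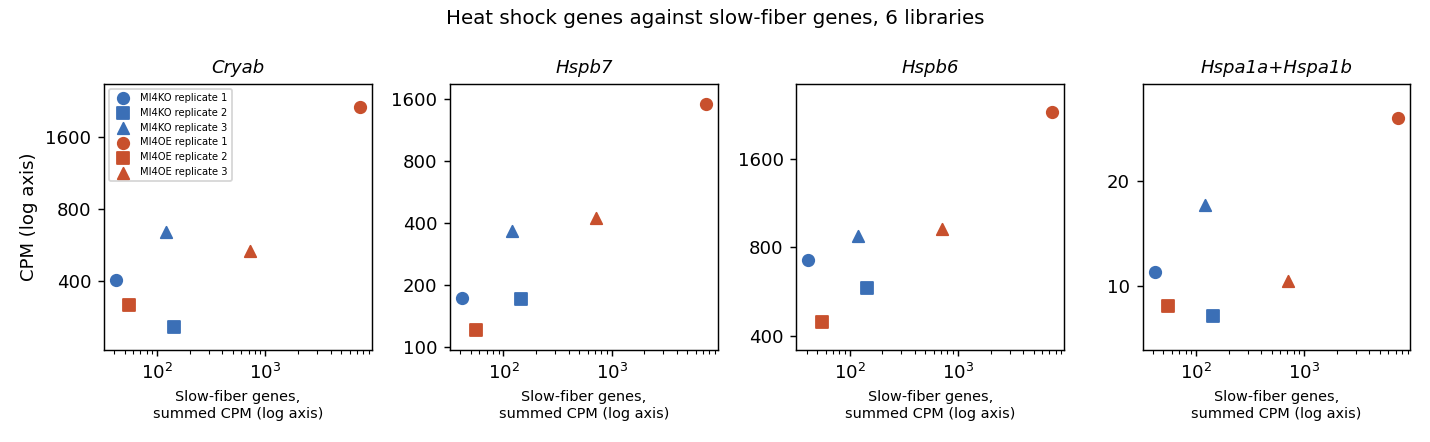
CPM of Cryab, Hspb7, Hspb6 and the sum of Hspa1a and Hspa1b against the summed CPM of the slow-fiber genes, with 1 point per library and log axes. MI4OE replicate 1 is at the top right of every panel, at 7397 CPM of slow-fiber genes, while MI4OE replicate 3, at 714 CPM, lies to the right of the MI4KO libraries with values close to or within theirs.

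MI4OE replicate 3 gave a second, smaller contrast. It held the next highest slow-fiber sum. Hspb7, at 426 CPM, and Hspb6, another small heat shock protein, at 923 CPM, were above all MI4KO libraries there. Cryab at 531 CPM, Hspb1 at 178 CPM and the Hspa1a and Hspa1b sum at 10.3 CPM lay inside the MI4KO range in that library. In MI4KO replicate 3, Cryab and Hspb1 were higher than in MI4OE replicate 3, while Myh2, at 1022 against 1808 CPM, and Mb (myoglobin), at 1917 against 2356 CPM, were lower. Within MI4KO these markers did not move alike. MI4KO replicate 3 had the most Myh2, against 3.44 and 90.1 CPM, and the most Mb, against 730.0 and 305 CPM. MI4KO replicate 2 had the higher slow-fiber sum, at 144 against 120.2 CPM, and the higher Myh7, at 20.5 against 1.04 CPM. Over the 6 libraries, Pearson r of log2 CPM with Myh7 ran from -0.56 for Hsph1 to 0.83 for Hspb7 among the 10 genes. How far the chaperone values follow oxidative fibers was not tested.

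The table lists 4 transcripts of Cryab, and their estimates did not move alike. The transcript NM_001289785 was at 501, 347 and 1063 TPM in MI4KO and at 4000.1 TPM in MI4OE replicate 1, 380 in replicate 2 and 912 in replicate 3. The other 3 transcripts together were at 184, 246 and 252 TPM in MI4KO and at 176, 316 and 243 TPM in MI4OE. The excess of MI4OE replicate 1 lay in 1 transcript estimate, while the sum of the other 3 was lowest in that library. NM_001289785 took 95.5% of the gene's counts there and between 52.9% and 79.8% elsewhere. The transcripts share most of their sequence and RSEM divides the shared reads, and how far that division sets the shares was not tested. Each of the other 9 genes had a single transcript in the table.

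**Figure D4:**
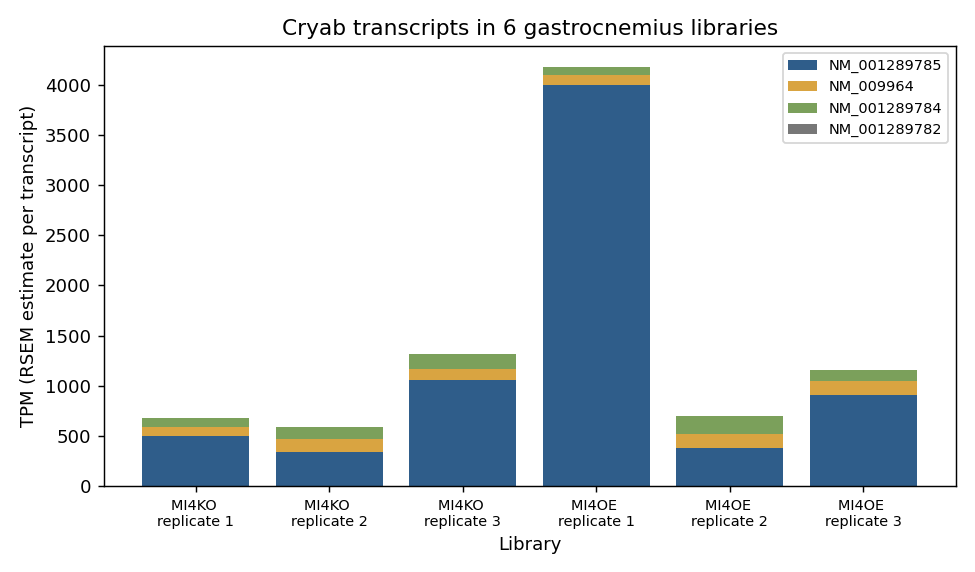
Stacked bars of the TPM of the 4 Cryab transcripts in each of the 6 libraries, with NM_001289785 at the base of each bar. This transcript reaches 4000.1 TPM in MI4OE replicate 1 and 347 to 1063 TPM elsewhere, and the sum of the others stays between 176 and 316 TPM.

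The wider chaperone network was counted in the same way. Across 8 further lists, 77 of 80 genes were tested, 35 with a log2 fold change above 0 and 42 below, with a median of -0.03. None passed an adjusted p of 0.05 and 1 passed the study's criterion, Hspa12b, against 6.64% of all genes. MI4OE replicate 1 reached at least 1.5 times the median of the others for 8 of the 77 and at least 2 times for 3, and the median ratio was 1.01. Hspa12b, an atypical HSP70 found mainly in endothelium, measured 4.59, 7.05 and 8.13 CPM in the MI4KO libraries, against 14.8, 10.03 and 12.6 CPM in those of MI4OE. Every MI4OE library was above every MI4KO library. At a log2 fold change of 0.92 (SE 0.25), its unadjusted p was 0.00775 and its adjusted p 0.521 in edgeR's quasi-likelihood test. The value was 0.78 without MI4OE replicate 1. Of 10 endothelial genes, 6 also passed the study's criterion, all higher in MI4OE, against 4.36% of all genes in that direction. Leaving out single libraries moved that count from 2 without MI4KO replicate 1 and 3 without MI4OE replicate 1 to 9 without MI4OE replicate 2. The part of endothelium in the Hspa12b value was not tested.

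**Figure D5:**
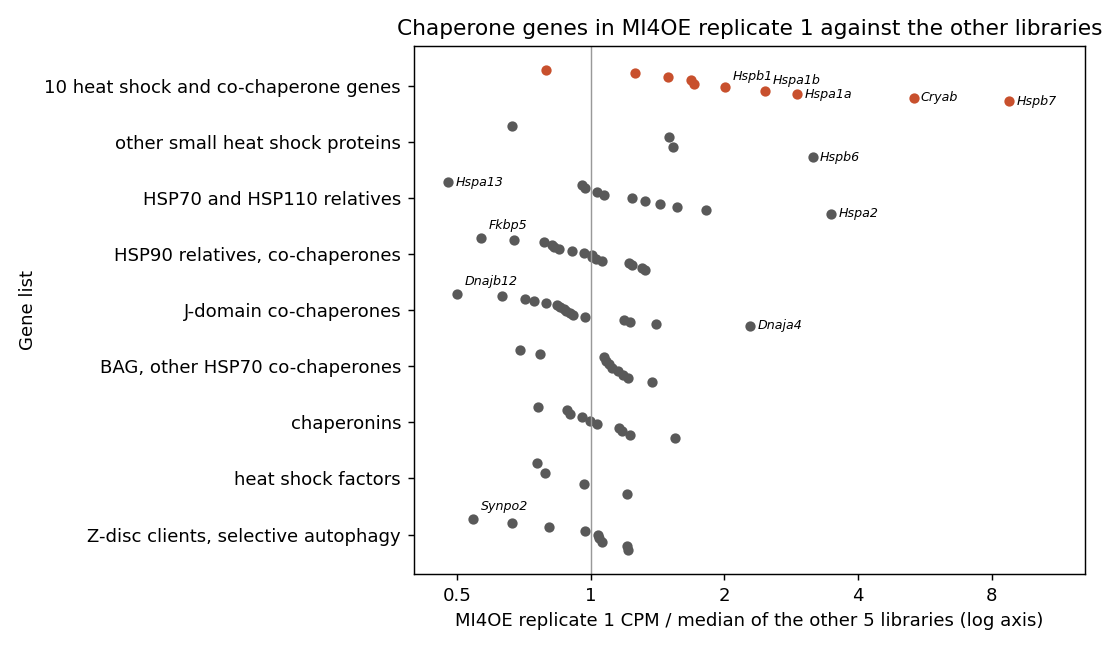
CPM in MI4OE replicate 1 divided by the median CPM of the other 5 libraries, on a log axis, for the 10 genes and for 8 further lists of chaperone genes, with 1 point per gene. The 10 genes reach 8.76, whereas 8 of the 77 other genes reach 1.5 or more, with Hspb6 at 3.17, Hspa2 at 3.48 and Dnaja4 at 2.28 the highest.

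Among the other small heat shock proteins, 4 of 6 were tested, 3 with values above 0, and 0 passed. Hspb6 (HSP20), abundant in oxidative muscle, measured 726, 583 and 871.5 CPM in the MI4KO libraries, against 2297, 447 and 923 CPM in those of MI4OE. Like Hspb7 it had both its highest and its lowest library in MI4OE, with a log2 fold change of 0.75 (SE 0.53). That value was -0.09 without MI4OE replicate 1 and 1.15 without MI4OE replicate 2, where Hspb6 also passed the study's criterion. Hspb8, the partner of BAG3 in selective autophagy, went the other way, with 689, 570 and 627 CPM for MI4KO against 381, 571 and 501 CPM for MI4OE. Its log2 fold change was -0.38 (SE 0.21), at an unadjusted p of 0.115 in edgeR's quasi-likelihood test, and MI4OE replicate 1 was its lowest library. Hspb2, the close neighbor of Cryab, ran from 46.4 to 75.1 CPM in MI4KO, against 100.3, 60.2 and 66.9 CPM in MI4OE. All 4 were below 0 without MI4OE replicate 1. Cryaa had 0 counts in every library and Hspb9 had at most 3, and neither was tested.

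Of the 11 HSP70 and HSP110 relatives, 8 had values above 0 and 3 below. The most abundant, Hspa9 of mitochondria, Hspa5 (BiP) of the endoplasmic reticulum and Hspa4, had log2 fold changes of 0.12, -0.09 and 0.01. Of 16 HSP90 relatives and co-chaperones, 7 were above 0 and 9 below, with 0.08 for Hsp90ab1, the constitutive cytosolic HSP90, -0.10 for Unc45b, a myosin chaperone, and 0.15 for Ahsa1, which activates HSP90. Unc45b was lowest in MI4OE replicate 1, at 213 CPM against 277 to 347 CPM. Of 16 J-domain proteins, 5 were above 0 and 11 below, with -0.01 for Dnajb5, -0.27 for Dnaja2 and -0.03 for Dnajb6. Of 10 BAG and other HSP70 co-chaperones, 6 were above 0 and 4 below, with 0.16 for Bag1, -0.11 for Sgta and -0.12 for Bag6. Of 10 chaperonin genes, 3 were above 0 and 7 below, with -0.09 for Cct5, -0.08 for Tcp1 and 0.18 for Hspe1. Apart from Hspa12b, 0 genes of these 5 lists passed the study's criterion in the quasi-likelihood fit of all libraries. Several of these sign counts moved without MI4OE replicate 1, to 5 above 0 and 6 below for the HSP70 relatives, 2 and 8 for the BAG group and 0 and 10 for the chaperonins. The HSP90 group then had 5 above 0 and 11 below, and the J-domain proteins still 5 and 11.

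No heat shock factor gene that passed the filter was called different. Hsf1 measured 56.2, 50.001 and 48.0 CPM in the MI4KO libraries, against 40.6, 51.8 and 51.4 CPM in those of MI4OE, with a log2 fold change of -0.10 (SE 0.16). It was lowest in MI4OE replicate 1, as were 30.4% of all genes, and the part of HSF1 in the chaperone values was not tested. Hsf4 and Hsbp1, which binds HSF1, had log2 fold changes of -0.24 and 0.03. Of 4 genes tested in the heat shock factor list, which includes Hsbp1, 0 passed. Hsf5, at 0 counts in each MI4KO library and 2, 3 and 1 in those of MI4OE, did not pass the filter. Of 9 Z-disc and selective autophagy genes 0 passed, with -0.21 for Des (desmin), -0.05 for Ldb3 and -0.04 for Myot.

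Immediate early genes, which respond within minutes to stress and handling, gave 0 of 10 at the study's criterion by the quasi-likelihood test on all libraries with the filter on low counts. Fosb and Junb passed it, lower in MI4OE, without the filter, with DESeq2, with edgeR's exact test and without MI4KO replicate 2 or 3. Jun measured 98.1, 65.1 and 81.1 CPM in the MI4KO libraries, against 129, 98.2 and 89.7 CPM in those of MI4OE, with a log2 fold change of 0.37 (SE 0.22). Junb and Btg2 had log2 fold changes of -1.15 and -0.86 and were both highest in MI4KO replicate 1, at 48.4 and 40.2 CPM. That library was not the highest for any of the 10 heat shock genes. This says little, because MI4OE replicate 1 was the highest for 9 of them. The part of handling in the heat shock values was not tested. Without MI4OE replicate 1, 4 of the 10 early genes passed the criterion, all lower in MI4OE, against 2.20% of all genes in that fit and direction: Fos at -2.30, Atf3 at -1.83, Btg2 at -1.58 and Junb at -1.46. In the same fit 0 of the 10 heat shock genes passed.

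The genes outside the set whose log2 CPM ran most like the Hspa1a and Hspa1b sum over the 6 libraries were Trappc2l, Rras, Lmf2, Lsm3 and Dbndd2, with Pearson r from 0.992 to 0.997. They were the top 5 of 6406 genes with a mean of at least 10 CPM. With 6 points sharing libraries and depth, this is a description of the ordering and carries no test.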

How the data were processed

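Gastrocnemius RNA from 3 MI4KO and 3 MI4OE mice was sequenced as stranded mRNA libraries in single 50-base reads. Per the labels, bcl2fastq 2.17, Bowtie2 2.1.0 and RSEM 1.2.15 were used with a UCSC transcript set. The genome build is not given in the sources used here. The authors deposited RSEM expected counts per gene, not normalized, and TPM values, which RSEM scales by transcript length. RSEM divides reads shared by similar transcripts, so values of near-identical genes are uncertain. The authors' own comparison tables hold fold changes, p-values and false discovery rates, and these and 12 library columns beside them were not used.

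Expected counts were rounded and fitted in edgeR 4.0.16 (R 4.3.3). Genes were kept by filterByExpr (minimum count 10, minimum total 15), which left 12660 of 24054. TMM scaling, the quasi-likelihood test at default settings and Benjamini-Hochberg adjustment over all tested genes followed, and genes past 1.5-fold with an unadjusted p under 0.05, the study's rule, were counted in the same fit. Hspa1a and Hspa1b were also fitted as 1 summed row. Alternatives varied the filter (none, or mean CPM of 1 or more), the scaling (RLE, total counts, or TMM with the top 100 genes by abundance removed), the test (DESeq2 1.42.0, the exact test of edgeR, or limma 3.58.1 with TPM logged after adding 1 or 0.1) and the libraries, each left out in turn.

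The 10 genes and all lists were chosen with earlier results of these data known. Genes named outside the 10 were those of the chaperone, heat shock factor, Z-disc and early gene lists with an unadjusted p under 0.05, no overlap, or among the 3 most abundant by TPM, the leading genes of marker lists, and the 5 genes most like the Hspa1a and Hspa1b sum. Hspa2, Dnaja4, Cryaa, Hspb9, Hsf5, Fos, Fosb, Atf3, Fkbp5, Mb, Myh1 and Myh2 were named after their values were seen. Sequences came from RefSeq promoter windows, and shared 50-base stretches from GENCODE M21 transcripts. Nothing in the labels ties libraries to separate litters or batches, so p-values measure only the spread between these libraries, and floors of 3 counts cover counting error only.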

Additional observations from a re-analysis of the deposited data

How the results depend on the processing

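No paired analysis was possible because the labels number no replicates and tie no MI4KO library to an MI4OE library. Over 15 alternatives, 6 of which left out 1 library, 0 of the 10 genes passed an adjusted p of 0.05, the lowest being 0.306 for Hspb7 and 0.406 for Cryab, both without MI4OE replicate 2. The genes with an adjusted p under 0.05 numbered 3 with edgeR's quasi-likelihood test, 111 with DESeq2, 108 with edgeR's exact test and 1 to 4 when a library was left out. Those at 1.5-fold and an unadjusted p under 0.05 numbered 841, 468 with limma on log2(TPM + 1) and 590 to 1314 without single libraries, highest without MI4OE replicate 2. Of the 10 genes, 0 to 2 passed that criterion without single libraries and 0 under the other 9 alternatives. Leaving out single libraries gave ranges of -0.058 to 0.43 for the median log2 fold change of the 10 genes and -0.34 to 0.76 for the Hspa1a and Hspa1b sum. For single genes the ranges were -0.44 to 0.82 for Hspa1a, -0.17 to 0.70 for Hspa1b, -0.072 to 0.14 for Hspa8, -0.26 to 0.26 for Hsp90aa1, -0.15 to 0.031 for Hsph1, -0.38 to 0.33 for Hspb1, -0.038 to 1.63 for Cryab and -0.045 to 0.45 for Bag3. Each of these turned its sign without MI4OE replicate 1, and Hspa8 (-0.039) and Hspb1 (-0.17) also without MI4KO replicate 2. Hspb7 and Dnajb1 stayed above 0 throughout, from 0.20 to 2.03 and from 0.11 to 0.49. With total counts in place of TMM, Hsph1 was at 0.0063, so all 10 genes were above 0, with a median of 0.38 beside 0.09 over all genes. The cause of these shifts was not tested. With 3 libraries per group, and 1 of them far from the rest, fitted differences as large as 1.54 for Hspb7 and 1.21 for Cryab were not called, so changes well above the standard errors can go undetected. Hspa12b passed 1.5-fold and an unadjusted p under 0.05 in all 15 alternatives, and Fkbp5 did so, lower in MI4OE, with DESeq2 and without MI4KO replicate 2 or 3. Fkbp5 was at 148 CPM in MI4KO replicate 1, against 17.8 to 37.3 CPM in the other libraries. The sum of 15 glucocorticoid and fasting genes, a list that also holds Fkbp5, was 3488 CPM in that library against 1266 to 1790 CPM. All 15 were below 0 in MI4OE and 5 passed the same criterion, against 2.28% of all genes, with 3 passing without MI4KO replicate 1 and 10 without MI4KO replicate 3, and the part of that response in the chaperone values was not tested. Hsf5, at 3 counts or fewer in every library, passed without a filter.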
